A study of Homo sapiens with 8 samples.

Results

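The 9 genes described here encode subunits of the 2 Polycomb repressive complexes: EZH1, EZH2, SUZ12, EED and JARID2 of PRC2, and BMI1, CBX2, CBX7 and CBX8 of PRC1. They were chosen by name, with earlier results of these data known, and are not all the subunits. All 9 were found among the 32066 genes of the count table. RNA was sequenced from DU145, an epithelial prostate carcinoma line taken from a brain metastasis, in 4 libraries of control cells and 4 of cells with SOX11 overexpression, the forced expression of a developmental SOX transcription factor. The labels give no vector, clone or time for either group and do not say that replicates were separate cultures, so p-values measure the spread between these libraries, which may be technical. The question is how the RNA of the Polycomb machinery differs between SOX11-expressing and control cells.

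Polycomb complexes keep developmental genes silent. PRC2 methylates lysine residues of histone H3 at the H3K27 position through EZH2, or through its paralog EZH1, which is less dependent on cell division, and needs SUZ12 and EED for activity. PRC1 adds ubiquitin to histone H2A through a RING1 or RNF2 subunit paired with a PCGF protein such as BMI1. In its canonical form it carries a CBX protein that reads methylated H3K27. In prostate cancer, high EZH2 is known as a feature of advanced disease.

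SOX11 itself had 0 counts in all 4 control libraries and 315, 303, 317 and 310 counts in SOX11 replicates 1 to 4, which matches the labels. Total counts ran from 14641250 to 18706095 per library. Epithelial keratin genes were abundant in every library, with 6 listed epithelial genes summing to 1206 to 1762 CPM (counts relative to library size, scaled by TMM, the trimmed mean of M values). In SOX11 libraries the keratin genes KRT8 (log2 fold change -0.51), KRT18 (-0.42) and KRT19 (-0.68) were lower and CLDN4 (0.99) was higher. The other listed epithelial genes, EPCAM (0.10) and CDH1 (-0.11), did not pass the test. CLDN4 was highest in SOX11 replicate 1, at 13.1 CPM against 7.85 to 9.46 CPM in the other SOX11 libraries. Of 12 listed fibroblast, blood and endothelial markers, 7 could be matched and 0 of those passed the filter on low counts, with a sum of 0.617 to 1.06 CPM; the other 5 were not analysed here. The library labelled SOX11 replicate 1 stood apart in luminal prostate genes, which DU145 is known to express little. It held 161 counts of the kallikrein gene KLK2 against 0 to 3 in the other 7 libraries, 95 of KLK3, which encodes prostate-specific antigen, against 0 to 4 and 24 of TMPRSS2 against 0 to 1. There were 38 genes above 1 CPM there at over 5 times the count of every other library, against 0 such genes in each of the other 7, by limits set after the counts were seen. None of the 9 Polycomb genes was among the 38, and results are given without this library where it changes a call among the 9. The part of these RNAs in the results below was not otherwise tested.

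The upstream sequences of the genes are shown first, since the results turn on which Polycomb genes differed and these are the stretches next to their start sites. Of the 9 genes, 7 have an entry in the RefSeq promoter table (GRCh38.p14). CBX2 and CBX8 were not matched. Each stretch below is the part of the 250 bases before the first RefSeq start site that meets no annotated GENCODE 29 exon, 5′ to 3′ on the gene's strand. JARID2 and BMI1 are shown because they differed between the groups, and EZH1 and SUZ12 because they hold a match to a searched motif. Capitals mark those matches.
JARID2, chr6:15245819-15246068, plus strand: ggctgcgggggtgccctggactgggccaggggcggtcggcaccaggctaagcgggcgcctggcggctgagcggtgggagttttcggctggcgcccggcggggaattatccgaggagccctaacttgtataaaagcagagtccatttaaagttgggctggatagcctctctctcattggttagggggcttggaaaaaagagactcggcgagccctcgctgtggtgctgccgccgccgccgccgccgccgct
BMI1, chr10:22320849-22321098, plus strand: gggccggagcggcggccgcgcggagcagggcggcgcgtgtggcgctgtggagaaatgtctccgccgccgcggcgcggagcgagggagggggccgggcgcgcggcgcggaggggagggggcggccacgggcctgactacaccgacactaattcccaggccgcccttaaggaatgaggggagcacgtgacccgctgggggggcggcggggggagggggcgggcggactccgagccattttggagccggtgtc
EZH1, chr17:42745050-42745290, minus strand: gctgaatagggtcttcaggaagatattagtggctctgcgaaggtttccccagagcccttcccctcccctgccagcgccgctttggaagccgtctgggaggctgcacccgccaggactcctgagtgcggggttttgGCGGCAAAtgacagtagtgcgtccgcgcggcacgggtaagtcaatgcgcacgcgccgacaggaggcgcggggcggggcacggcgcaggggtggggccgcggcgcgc
SUZ12, chr17:31936757-31937006, plus strand: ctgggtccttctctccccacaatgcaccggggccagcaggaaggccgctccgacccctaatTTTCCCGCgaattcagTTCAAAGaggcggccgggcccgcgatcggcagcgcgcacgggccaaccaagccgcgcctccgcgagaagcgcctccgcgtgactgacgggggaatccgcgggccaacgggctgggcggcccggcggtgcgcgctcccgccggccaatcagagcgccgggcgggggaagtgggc

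A pair of motif families was searched on both strands in the 250 upstream bases. The SOX letters were NNCAANG, where each N was A or T. The E2F letters were TTTCCCGC, TTTCGCGC, TTTGCCGC and TTTGGCGC, after the factors that drive S-phase genes. A SOX match was present in 1 of the 10 windows of the 7 genes, at 173 to 167 bases before the SUZ12 start. Over all 35116 promoter windows of this length, 17.9% held one. An E2F match was present in the windows of SUZ12 (189 to 182 bases before the start) and EZH1 (115 to 108 bases before it, on the opposite strand), against 2.79% of all windows. The windows of EZH2, EED, JARID2, BMI1 and CBX7 held neither. The SUZ12 and EZH1 windows were 72.8% and 67.6% G or C, and the shares over all windows were not matched for base content. A match of letters is a description of the sequence only.

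CBX2, a chromodomain subunit of canonical PRC1 known for compacting chromatin, almost doubled its RNA in SOX11-expressing cells, and no other gene of the 9 moved nearly as far. JARID2, which helps recruit PRC2, was slightly higher, and BMI1, a PCGF subunit of PRC1, slightly lower. The PRC2 core genes EZH2, EZH1, SUZ12 and EED and the PRC1 genes CBX7 and CBX8 did not pass the test. All 9 genes passed the filter on low counts, and 3 were called at an adjusted p below 0.05 (edgeR quasi-likelihood test, Benjamini-Hochberg over all tested genes), 2 higher and 1 lower. Of all 15665 tested genes, 20% were called, 10.3% higher and 9.67% lower, against 33.3% of these 9, a share that rests on few genes. The median log2 fold change was -0.00 for the 9 genes and 0.00 over all tested genes. In RNA from a mass of cells, a change in the number of expressing cells and a change in RNA per cell cannot be told apart.

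**Figure D1:**
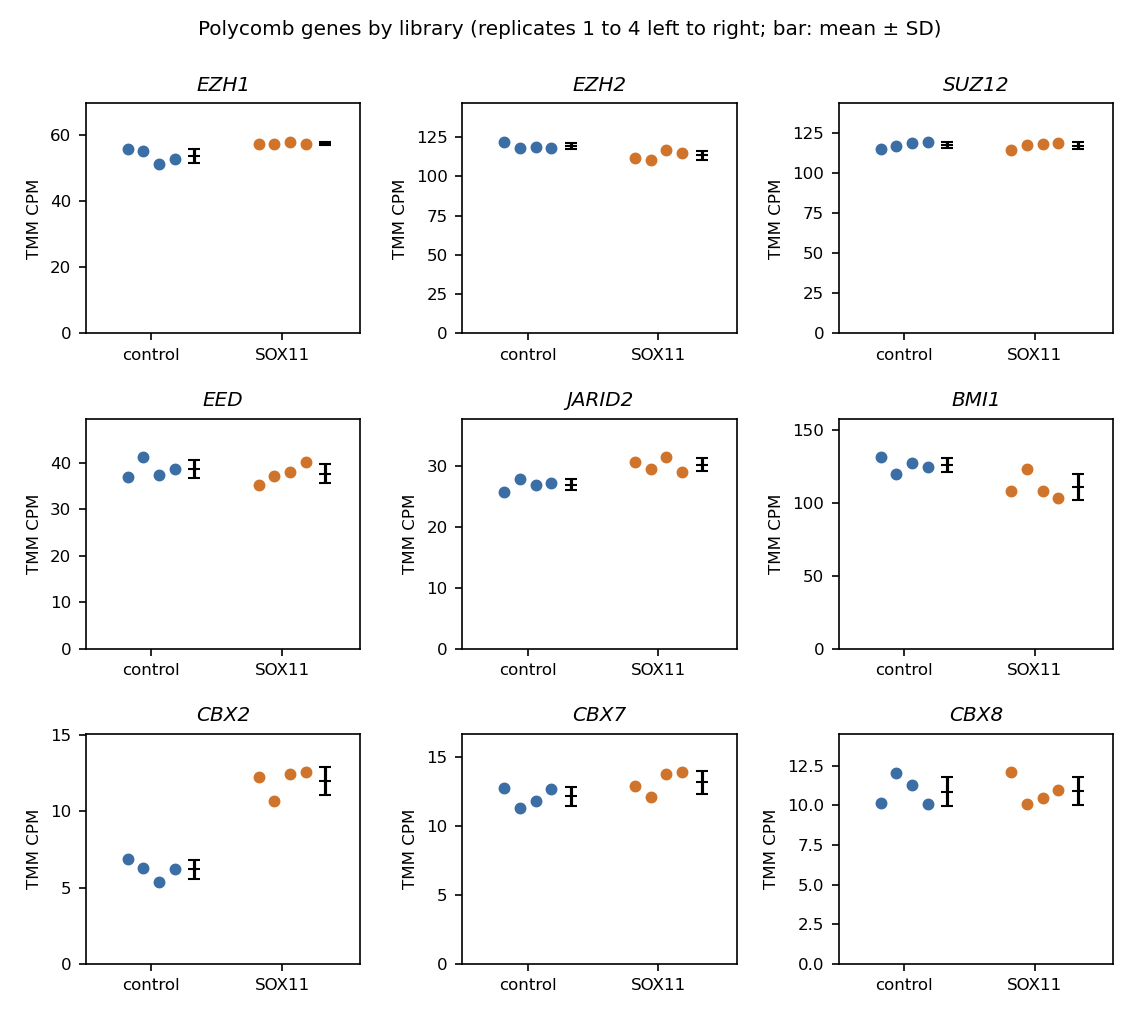
Level of each of the 9 Polycomb genes in every library, in TMM-scaled CPM from 0, with control libraries in blue and SOX11 libraries in orange; the bar beside each group is its mean and SD over 4 libraries. CBX2 lies between 5.36 and 6.90 CPM in control and between 10.6 and 12.6 CPM in SOX11 libraries, while BMI1, SUZ12, EED, CBX7 and CBX8 overlap between groups.

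CBX2 (ENSG00000173894, GRCh38 chr17:79778132-79787983, plus strand) measured 6.90, 6.28, 5.36 and 6.24 CPM in control replicates 1 to 4 and 12.2, 10.6, 12.5 and 12.6 CPM in SOX11 replicates 1 to 4. Every SOX11 library was above every control library, and the lowest SOX11 value was that of replicate 2. Behind these levels stood 78 to 116 counts per control library and 180 to 205 per SOX11 library. The log2 fold change was 0.95 ± 0.0986 (SE), a 1.93-fold increase with a 95% interval of 1.68 to 2.21 (edgeR adjusted p = 1.72e-08, n = 4 per group). It ranked 108 among the tested genes by p and 150 by log2 fold change. Leaving out single libraries gave log2 fold changes from 0.89 to 1.00, and without SOX11 replicate 1 it was 0.93. No other gene in GENCODE 29 shares exon bases with CBX2.

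BMI1 (ENSG00000168283, chr10:22321211-22331484, plus strand) measured 132, 120, 128 and 125 CPM in control and 108, 123, 108 and 104 CPM in SOX11 libraries. The groups overlapped through SOX11 replicate 2, which was above control replicate 2. The log2 fold change was -0.18 ± 0.0442, a level 0.880 times that of control with a 95% interval of 0.827 to 0.937 (edgeR adjusted p = 0.00347). Without SOX11 replicate 2 it was -0.24 (adjusted p = 1.74e-05), and without replicate 1 it was -0.17 (adjusted p = 0.0179). A readthrough transcript gene, COMMD3-BMI1, shares 1000 exon bases (23.3%) with BMI1 on the same strand. It is not among the counted genes, and how reads of the shared bases were counted is not known. COMMD3, the gene just before BMI1, was looked at after the BMI1 value was seen. It went from 17.7 ± 0.668 (SD) to 15.1 ± 1.45 CPM (log2 fold change -0.23, adjusted p = 0.0285).

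JARID2 (ENSG00000008083, chr6:15246296-15522040, plus strand) is the PRC2 cofactor that resembles a histone demethylase but lacks its activity. It measured 25.7, 27.9, 26.8 and 27.2 CPM in control and 30.5, 29.5, 31.4 and 29.04 CPM in SOX11 libraries. The groups did not overlap, though the gap between them was small. The log2 fold change was 0.16 ± 0.0553 (edgeR adjusted p = 0.0353), a 1.12-fold increase with a 95% interval of 1.04 to 1.21. This call is not firm. It ended in 8 of 16 alternative fits, among them those with DESeq2 (adjusted p = 0.0982) and without SOX11 replicate 1 (0.0769), control replicate 1 (0.0994), control replicate 3 (0.0731), control replicate 4 (0.0591) or SOX11 replicate 3 (0.114). The log2 fold change stayed between 0.14 and 0.18 in all 16.

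EZH2 (ENSG00000106462, chr7:148807383-148884321, minus strand), the main methyltransferase of PRC2 in dividing cells, measured 122, 118, 119 and 118 CPM in control and 112, 111, 117 and 115 CPM in SOX11 libraries. EZH1 (ENSG00000108799, chr17:42700275-42745049, minus strand) measured 55.6, 55.0, 51.0 and 52.7 CPM in control and 57.1, 57.1, 57.8 and 57.0 CPM in SOX11 libraries. In both genes the groups did not overlap, EZH2 being lower and EZH1 higher in SOX11 libraries, but neither passed the test. Log2 fold changes were -0.07 ± 0.0350 for EZH2 (adjusted p = 0.165) and 0.09 ± 0.0439 for EZH1 (adjusted p = 0.135). Groups without overlap were found in 4 of the 9 genes (CBX2, JARID2, EZH1 and EZH2) and in 21.1% of all tested genes. The 95% interval ran from -0.14 to 0.00 for EZH2 and from 0.00 to 0.18 for EZH1.

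Since the 2 methyltransferase genes leaned opposite ways, their ratio was taken within each library on levels per kilobase of exon (CPM per kb, over the union of annotated exons). The ratio of EZH2 to EZH1 was 3.39, 3.32, 3.59 and 3.46 in control and 3.02, 3.00, 3.12 and 3.11 in SOX11 libraries. All 4 SOX11 libraries lay below all 4 control libraries. This follows from the lack of overlap in both genes and is no separate result. EZH1 made up 22.5 ± 0.590% (SD, n = 4) of the summed EZH1 and EZH2 level in control and 24.6 ± 0.386% in SOX11 libraries. These shares are descriptive and carry no test.

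SUZ12 (ENSG00000178691, chr17:31937018-32001045, plus strand), the scaffold of PRC2, measured 115, 117, 119 and 120 CPM in control and 114, 118, 118 and 119 CPM in SOX11 libraries. EED (ENSG00000074266, chr11:86244544-86278813, plus strand), which binds methylated H3K27 and stimulates the enzyme, measured 37.0, 41.3, 37.4 and 38.7 CPM in control and 35.3, 37.1, 38.1 and 40.2 CPM in SOX11 libraries. The groups overlapped almost fully in both genes. The 95% intervals of the log2 fold change ran from -0.08 to 0.06 for SUZ12 (adjusted p = 0.938) and from -0.15 to 0.07 for EED (adjusted p = 0.691). The pseudogene SUZ12P1, a partial copy of SUZ12, held only 2 to 8 counts per library. The ratio of SUZ12 to EED per kb was 3.28 ± 0.162 in control and 3.34 ± 0.128 in SOX11 libraries, and with the longest transcript as length it was 1.88 and 1.92.

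CBX7 and CBX8 are chromodomain paralogs of CBX2. CBX7 (ENSG00000100307, chr22:39120167-39152674, minus strand) measured 12.7, 11.3, 11.8 and 12.6 CPM in control and 12.8, 12.1, 13.7 and 13.9 CPM in SOX11 libraries. CBX8 (ENSG00000141570, chr17:79792132-79801683, minus strand) measured 10.2, 12.0, 11.3 and 10.0 CPM in control and 12.1, 10.1, 10.5 and 10.9 CPM in SOX11 libraries. Neither separated the groups. Log2 fold changes were 0.12 with an interval of -0.05 to 0.28 for CBX7 (adjusted p = 0.339) and -0.00 with an interval of -0.19 to 0.18 for CBX8 (adjusted p = 0.982), and both intervals lie below that of CBX2, which starts at 0.74. An antisense gene, AL031846.2, shares 1338 exon bases (17.9%) with CBX7, and the strand setting of the counting is not given in the sources used here.

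CBX2 and CBX8 lie next to each other on chromosome 17 and are transcribed towards each other. Their start sites are 23.6 kb apart, and that of the noncoding gene LINC01977 lies 45.3 kb from the CBX2 start. These neighbours were looked at after the CBX2 value was seen. LINC01977 had 3.54 ± 0.124 CPM in the control group and 3.48 ± 0.474 CPM with SOX11 (log2 fold change -0.02, adjusted p = 0.956). Neither CBX8, at -0.00, nor LINC01977 passed the test beside the higher CBX2.

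Levels between genes were compared per kb of exon. In control libraries the order was BMI1 (29.4 ± 1.13 CPM per kb, SD), EZH2 (26.4 ± 0.440), SUZ12 (17.98 ± 0.296), EZH1 (7.67 ± 0.302), EED (5.50 ± 0.277), JARID2 (4.47 ± 0.149), CBX8 (2.61 ± 0.225), CBX7 (1.62 ± 0.0899) and CBX2 (1.09 ± 0.111). No pair of neighbours in that order overlapped between libraries. In SOX11 libraries CBX2, at 2.11 ± 0.158 CPM per kb, stood above CBX7 at 1.76 ± 0.113 by this length. BMI1 and EZH2 overlapped there, as did EED and JARID2. This order depends in part on the length used. With the longest transcript in place of all exons, CBX2 was lowest in both groups, its ratio to CBX7 in SOX11 libraries being 0.801 in place of 1.196. EED then stood above EZH1 and CBX7 above CBX8 in the means of both groups.

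Shares were taken within 4 Polycomb CBX genes (CBX2, CBX6, CBX7 and CBX8). CBX2 made up 7.82%, 6.72%, 5.63% and 6.69% of their summed level per kb in control and 11.7%, 11.1%, 11.9% and 12.1% in SOX11 libraries, with no overlap. CBX6 held the largest share in both groups, 67.2 ± 1.51% and 63.9 ± 0.876%, also with no overlap. The level of CBX6 itself was not lower, at 87.8 ± 4.57 CPM in control and 92.1 ± 3.40 CPM in SOX11 libraries. Its groups overlapped and it was not called (log2 fold change 0.07, edgeR adjusted p = 0.261). CBX7 and CBX8 had overlapping shares, CBX7 at 9.998 ± 0.806% and 9.80 ± 0.364% and CBX8 at 16.0 ± 1.17% and 14.6 ± 0.923%. CBX2 had the smallest share in control libraries, and by this length it stood between CBX7 and CBX8 in SOX11 libraries. With the longest transcript as length it had the smallest share there too, 10.9%, against 12.1% for CBX8 and 13.6% for CBX7.

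BMI1 is also known as PCGF4, and the PCGF protein present decides which PRC1 variant forms. BMI1 made up 36.1%, 33.7%, 34.3% and 33.6% of the summed level per kb of the 6 PCGF genes in control and 30.8%, 33.2%, 30.2% and 28.9% in SOX11 libraries. It was the largest share in each of the 8 libraries. PCGF3, of a variant PRC1 without CBX subunits, went from 11.8 ± 0.157% to 14.0 ± 0.280%, and the BMI1 paralog PCGF2 from 20.2 ± 0.835% to 22.2 ± 0.824%. PCGF1, PCGF5 and PCGF6 had overlapping shares. A share can move because another gene of the sum moved. Beside it, the level of PCGF3 rose by a log2 fold change of 0.22 ± 0.0374 (adjusted p = 4.29e-05), and PCGF2 stood at 0.11 ± 0.0426 (adjusted p = 0.0604). PCGF2 shares 1148 exon bases (32.7%) with CISD3 on the opposite strand, and the strand setting of the counting is not known.

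**Figure D2:**
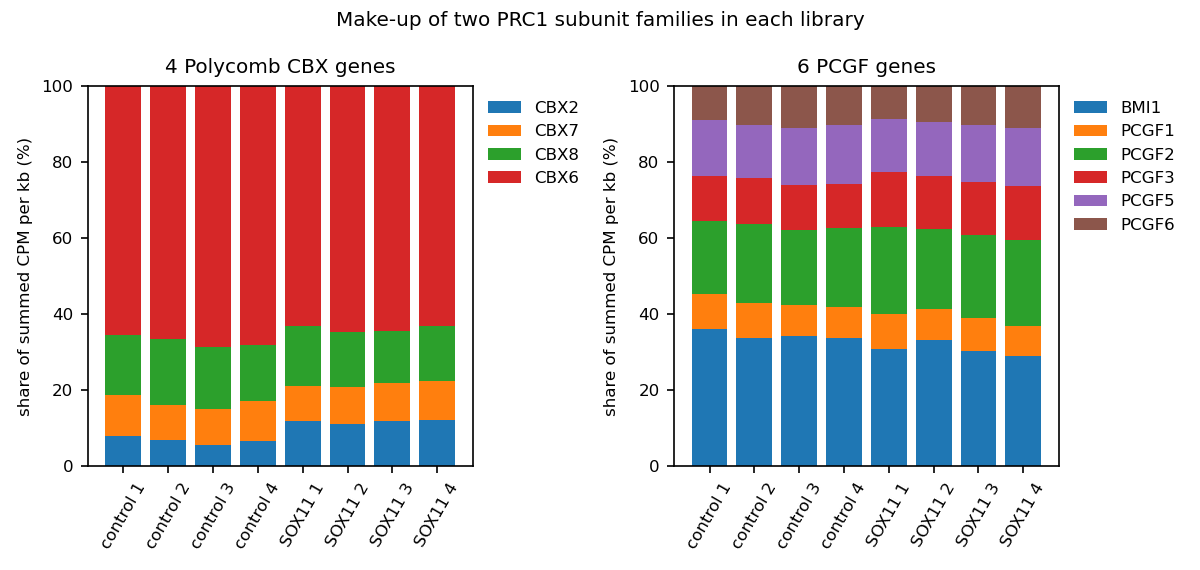
Share of each gene in the summed level per kb (CPM per kb, %) of 4 Polycomb CBX genes (left) and the 6 PCGF genes (right), 1 bar per library. The CBX2 segment at the foot of the left bars is at most 7.82% in control and at least 11.1% in SOX11 libraries; the BMI1 segment on the right is lower in SOX11 libraries, least so in replicate 2.

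The rest of the Polycomb machinery was read from fixed lists. Of 9 tested other PRC2 genes, 2 were higher and 1 lower. RBBP4, a histone chaperone subunit shared with other chromatin complexes, rose from 240 ± 3.38 to 279 ± 9.93 CPM (log2 fold change 0.22, adjusted p = 6.61e-06). Its exons overlap SYNC on the opposite strand. Among the Polycomb-like proteins, which link PRC2 to CpG-rich DNA, MTF2 (0.15, adjusted p = 0.0358) was higher and PHF19 (-0.17, adjusted p = 0.00133) lower. PHF19 went from 168, 174, 174 and 170 CPM in control to 157, 137, 155 and 158 CPM in SOX11 libraries, lowest in replicate 2. The MTF2 call ended in 10 of 16 alternative fits, including DESeq2 (adjusted p = 0.0970) and each library left out other than SOX11 replicate 1 (0.0506 to 0.117).

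Of 25 tested other PRC1 genes, 3 were higher and 1 lower, while the other 21 lay between -0.07 (SCMH1) and 0.15 (BCOR) on the log2 scale. Besides PCGF3, the polyhomeotic gene PHC1, a subunit of canonical PRC1, rose from 20.01 ± 0.946 to 23.8 ± 1.59 CPM (0.25, adjusted p = 0.00581), and overlaps M6PR on the opposite strand. DCAF7, an adaptor of variant PRC1, was higher (0.18, adjusted p = 0.000244), and SCML1 was lower (-0.22, adjusted p = 0.00147). The catalytic subunits RNF2 (-0.05, adjusted p = 0.660) and RING1 (0.09, adjusted p = 0.167) were not called. Of 11 tested genes for enzymes that remove these marks and for their partners, 1 was higher. KDM6B, an H3K27 demethylase, measured 26.6, 23.3, 23.7 and 25.0 CPM in control and 34.6, 28.7, 30.7 and 29.7 CPM in SOX11 libraries (log2 fold change 0.33 ± 0.0630, adjusted p = 0.000264). Without SOX11 replicate 1, its highest library, the log2 fold change of KDM6B was 0.27 (edgeR adjusted p = 0.00325). In these 3 lists together 8 of 45 tested genes were called (17.8%), against 20% of all genes, and none reached 1.5-fold.

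**Figure D3:**
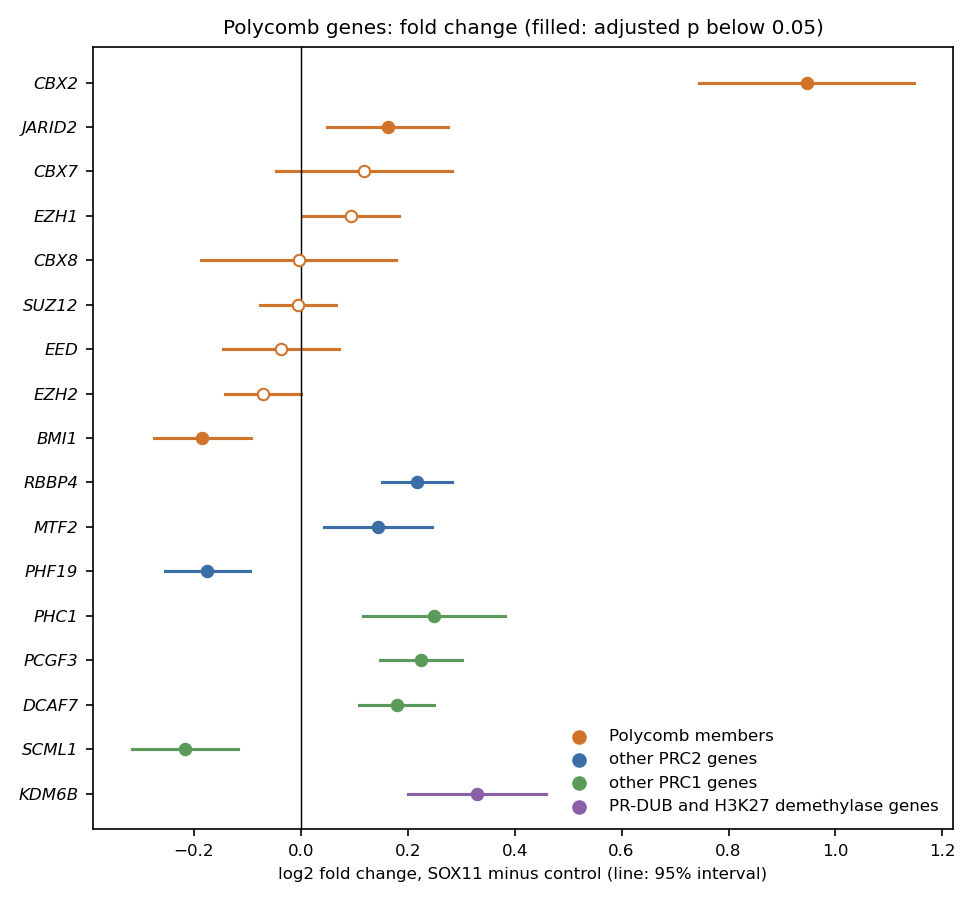
Log2 fold change (SOX11 minus control) with its 95% interval for the 9 Polycomb genes and for the called genes of the 3 other lists; filled points passed an adjusted p of 0.05. CBX2 at 0.95 stands to the right of all others, which lie between -0.22 and 0.33.

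Genes known from other cells as silenced by Polycomb mostly did not pass the test. Of 24 listed, 18 were tested, 3 were higher, 0 lower and 15 not called, with a median log2 fold change of 0.06. VASH1, an angiogenesis inhibitor, rose from 7.83 ± 0.566 to 10.6 ± 1.02 CPM (log2 fold change 0.44, adjusted p = 0.00110). It shares exon bases with genes on the opposite strand. On its own strand it shares 721 exon bases (11.1%) with AF111169.1, which is not among the counted genes. DAB2IP, a RAS GTPase-activating protein silenced by EZH2 in prostate cancer, rose from 52.3 ± 3.87 to 63.2 ± 0.712 CPM (0.27, adjusted p = 8.59e-05). The cell cycle inhibitor gene CDKN2B was at 23.6 ± 3.59 and 28.9 ± 3.01 CPM with overlapping groups (0.30, adjusted p = 0.0412), and its call ended in 6 of 16 alternative fits, those without control replicate 1, 2 or 4 or SOX11 replicate 1, 2 or 3 (adjusted p = 0.0561 to 0.118). The share called, 16.7%, was below the 20% of all genes. Of the other 6, 3 could not be matched in the count table. The rest did not pass the filter, with at most 12 counts in a library.

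EZH2 and CBX2 are known to follow proliferation in many cells, so S-phase and mitosis genes are given beside them. Of 22 tested, 13 were lower (59.1%) and 0 higher, against 9.67% lower over all tested genes, with a median log2 fold change of -0.13. The mitosis genes AURKA (-0.24), CCNB2 (-0.26), TPX2 (-0.20) and BUB1 (-0.22) fell, as did the nucleotide synthesis genes TYMS (-0.13) and RRM2 (-0.18). The replication helicase genes MCM2 (0.07), MCM3 (0.02), MCM5 (-0.02), MCM6 (-0.06) and MCM7 (0.05) were not called. The level summed over all 22 genes was 6154 to 6614 CPM in control and 5726 to 6182 CPM in SOX11 libraries. CBX2 was higher in the group in which the 13 genes were lower, and the uncalled EZH2 value, -0.07, had the sign of the list's median. The part of proliferation in either value was not tested.

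By a fixed rule, genes most like CBX2 were sought from deviations from the group mean of log2 CPM over the 8 libraries. The highest correlations were those of RARA (r = 0.97), PABIR1 (0.97) and ZNF708 (0.97), and the lowest those of PYM1 (-0.98), PAIP1 (-0.98) and ZNF614 (-0.96). None of these 6 was called between the groups. The values are extremes picked from all tested genes over 8 libraries and are a description only.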

How the data were processed

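RNA was measured in 8 libraries of DU145, 4 control and 4 with SOX11 overexpression, made with a stranded poly(A) kit, per the labels' protocols. The authors deposited raw counts per Ensembl gene. Per the submitters' processing notes, cutadapt, FastQC, STAR 2.7.0e and GRCh38 were used. The counting tool was not given in the sources used here, nor were its strand setting and gene annotation. Column names gave the sample of each of the 8 columns.

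Symbols were matched for 32053 of 32066 identifiers. Coordinates, exon lengths and overlaps are from GENCODE 29 (GRCh38), 1-based, and promoter sequences from RefSeq (GRCh38.p14). Genes were filtered with filterByExpr (minimum count 10), scaled by TMM and fitted with group as the only term in edgeR 4.0.16 (R 4.3.3), using its robust quasi-likelihood test. P-values were adjusted over all 15665 tested genes by the Benjamini-Hochberg method. Standard errors come from the coefficient and its F statistic. On simulated counts for this comparison (15665 genes), 61% of 1.25-fold and 93.9% of 2-fold changes were recovered. The simulations changed a far smaller share of genes than was called in the data, so these rates need not carry over. Pairs of libraries were compared by the chi-square per degree of freedom of their counts, with no limit set for calling duplicates. The lowest value was 1.43, between SOX11 replicates 3 and 4.

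The members and lists were chosen with earlier results of these data known. Named were SOX11, all 9 members, up to 8 called genes of each other Polycomb list, up to 4 called proliferation genes and called markers. COMMD3, LINC01977, SUZ12P1, FOLH1, HOXB13 and HP1 genes were added after their values were seen. A few genes of the lists are not reported here. RNF2, RING1, PCGF2, TYMS, RRM2, MCM genes and the genes at the ends of ranges were named for context in the same way. Alternatives were RLE and upper quartile scaling, scaling without SOX11, DESeq2 1.42.0 and limma-voom (limma 3.58.1) as tests, no filter or 1 CPM in 4 libraries, a replicate block, each library left out, and another gene length.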

Additional observations from a re-analysis of the deposited data

Results flagged for a closer look

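In groups of 4 libraries, a value is listed here when its gap to the nearest other library is larger than Dixon's 95% limit for the group's range. Of 61 groups examined 7 were marked, and chance marks about 1 in 20. Groups of luminal prostate genes were examined only where counts were not near the floor. That held only through SOX11 replicate 1, so their marks cannot be set against this rate. The highest EZH1 value in SOX11 libraries was 57.8 CPM (replicate 3), although all SOX11 libraries lay close together. The highest EZH2 value in control was 122 CPM (replicate 1). PHF19 was lowest in SOX11 replicate 2 at 137 CPM. TPX2 reached 368 CPM in 1 SOX11 library.

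The other 3 marks fell on SOX11 replicate 1. There KLK3 reached 5.85 CPM, KLK2 9.91 CPM and TMPRSS2 1.48 CPM. A further pair of prostate genes looked at afterwards, FOLH1 and HOXB13, had 107 and 84 counts there and 0 to 3 counts elsewhere. Without this library CBX2 and BMI1 were called and JARID2 was not.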

How the results depend on the processing

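CBX2 and BMI1 were called in the same direction in all 16 alternative fits, with log2 fold changes from 0.89 to 1.00 and from -0.24 to -0.16. EZH1, EZH2, SUZ12, EED, CBX7 and CBX8 were called in none. JARID2 lost its call in 8, so the count of Polycomb genes called higher was 1 in place of 2 without a filter on low counts, with DESeq2 and with the replicate block, and 1 to 2 with single libraries left out. Without a filter its adjusted p was 0.0919. In fits of single named genes, 440 kept their side of the threshold and 24 lost a call (JARID2, MTF2 and CDKN2B). Counts over all genes ran from 2407 (DESeq2) to 3130.

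The replicate numbers share no stated origin, and deviations of same-numbered libraries correlated at -0.07 to 0.11, with only control replicate 4 closest to its own number among control libraries. With the number as a replicate block 2899 genes were called in place of 3130, and JARID2 (adjusted p = 0.0550) and MTF2 (0.0571) were not. With the longest transcript as gene length, the ratio of EZH2 to EZH1 was 2.83 in control and 2.52 in SOX11 libraries, against 3.44 and 3.06, and that of CBX7 to CBX8 was 1.04 and 1.12, against 0.627 and 0.676. The ratio of SUZ12 to EED was 1.88 and 1.92, against 3.28 and 3.34, and that of CBX2 to CBX7 was 0.449 and 0.801, against 0.671 and 1.196. The CBX2 share of the 4 CBX genes in SOX11 libraries was then 10.9%, against 11.7%. CBX2, with 78 to 205 counts, and CBX7 and CBX8 are the least deeply counted of the 9 genes, and their intervals are the widest.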

Other observations

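The chromobox family also holds the HP1 genes, whose proteins read the H3K9 mark of constitutive heterochromatin and belong to no canonical Polycomb complex. They were looked at after the CBX2 value was seen. CBX5, which encodes HP1 alpha, rose from 137 ± 6.89 to 192 ± 7.50 CPM (SD, n = 4), a log2 fold change of 0.48 ± 0.0375 (edgeR adjusted p = 3.86e-11). CBX1, which encodes HP1 beta, rose from 168 ± 3.34 to 194 ± 4.69 CPM (0.20 ± 0.0324, adjusted p = 2.54e-05). CBX3, which encodes HP1 gamma and is the most abundant of the 3 in CPM, was at 359 ± 8.03 and 348 ± 9.81 CPM (-0.04, adjusted p = 0.355).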
